A study of Mus musculus with 20 samples.

Results

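Dusp6, Ier3, Spred2, Egr1 and Phlda1 are genes induced by ERK signalling, the pathway through which fibroblast growth factors (FGFs) act, and were measured in kidneys of Hyp and normal mice. They were taken as every probe set that the platform annotation maps to one of these genes alone, which gave 7 probe sets of 5 genes among 12488 probe sets and 8251 genes with such a probe set. The study compared the kidney's response to dietary phosphate restriction between the genotypes. Its 4 groups, with 5 arrays each, were Hyp low phosphate, Hyp control, normal low phosphate and normal control (genotype and diet), all C57BL/6J. Hyp mice carry a mutation of the X-linked gene Phex and serve as a mouse model of X-linked hypophosphatemia, in which the kidney wastes phosphate; the labels give neither the ages nor whether Hyp females had a normal copy. Each array held kidney RNA pooled from 3 mice. In every group 3 arrays came from mice fed for 5 days (2 of males, 1 of females) and 2 from mice fed for 3 days (1 of each sex).

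FGF receptors signal through Ras, Raf and MEK to ERK, and ERK within a short time induces genes that carry the response onward and genes that dampen it. The dampers form negative feedback: a phosphatase that removes the activating phosphates from ERK, or inhibitors that act on the steps above it. In the kidney the hormone FGF23, made by bone, acts through FGF receptors with the co-receptor Klotho (gene Kl) and lowers phosphate reabsorption; Hyp mice are known for high circulating FGF23, which was not measured here.

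Dusp6 encodes the phosphatase that acts on ERK in the cytoplasm, and its gene lies at chr10:99263231-99267489 in GRCm38.p6. Spred2 (chr11:19924442-20024026) is a Sprouty-related inhibitor of the Ras to ERK pathway. Ier3 (chr17:35821713-35822911) is an early response gene that affects cell survival, and Egr1 is a zinc finger transcription factor induced early by growth factors. Phlda1 (chr10:111506286-111508649) is a protein with a pleckstrin homology-like domain that growth factors induce. Dusp6 and Egr1 each had a second, dimmer probe set.

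The promoter windows from RefSeq (GRCm38.p6, 250 bases before to 50 after the start) are printed for Dusp6, Ier3 and Spred2, 3 of the 5 genes. The other 2 are not shown, for reasons unrelated to their test results. Capitals mark the letters CGGAA, called the ETS letters here, or their reverse complement TTCCG, since ETS factors are known targets of ERK. The shorter string GGAA, which occurs in all 3 windows, was not searched or marked by itself.
Dusp6, chr10:99262981-99263280, + strand: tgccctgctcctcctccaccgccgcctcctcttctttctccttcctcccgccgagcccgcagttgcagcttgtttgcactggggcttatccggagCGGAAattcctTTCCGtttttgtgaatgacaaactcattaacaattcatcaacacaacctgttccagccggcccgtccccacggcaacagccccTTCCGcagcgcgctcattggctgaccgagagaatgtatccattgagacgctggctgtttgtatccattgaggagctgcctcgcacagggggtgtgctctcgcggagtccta
Ier3, chr17:35821463-35821762, + strand: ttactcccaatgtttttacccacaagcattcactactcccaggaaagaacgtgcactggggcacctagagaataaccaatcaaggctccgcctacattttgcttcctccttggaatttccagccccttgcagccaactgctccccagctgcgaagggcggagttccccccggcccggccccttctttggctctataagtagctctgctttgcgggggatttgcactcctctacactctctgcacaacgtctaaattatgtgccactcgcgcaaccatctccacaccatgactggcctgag
Spred2, chr11:19924192-19924491, + strand: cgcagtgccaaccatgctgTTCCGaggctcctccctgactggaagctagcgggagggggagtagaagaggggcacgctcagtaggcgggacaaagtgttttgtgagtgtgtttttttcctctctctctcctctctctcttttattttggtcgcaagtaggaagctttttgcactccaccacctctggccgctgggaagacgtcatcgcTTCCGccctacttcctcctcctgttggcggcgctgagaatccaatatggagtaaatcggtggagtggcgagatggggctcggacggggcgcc
Dusp6 held 3 matches, at -155 to -151, -144 to -140 and -61 to -57 bases from the start. Spred2 held 2, at -231 to -227 and -42 to -38, and Ier3 held 0 of the full string CGGAA. Of 32544 distinct windows of this length in the table, 30.1% held the ETS letters on either strand. The AP-1 letters TGANTCA (7.79% of windows), the CRE letters TGACGTCA (1.8%), the EGR letters GCGNGGGCG (5.6%) and the SRF CArG box (1.64%), searched on both strands, had no match in the 3 windows; the motif set was revised once after a first look, and the matches are a description of letters only.

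Values are signal intensities on the authors' scale. The deposited table carries no background estimate, so how far dim values lie above background cannot be told. The number of arrays limits the precision. Of 7 probe sets 5, 1 per gene, passed the filter on dim values (a mean intensity of at least 79.4) and were tested; the second probe sets of Dusp6 (mean intensity 36.3) and Egr1 (55.8) did not. Arrays are named by the number in their titles. Arrays 05 to 08, the females at 5 days with 1 array per group, stood apart by the median Spearman correlation of each with all others, 0.895 to 0.934, against 0.943 to 0.969 for the other 16 arrays. The actin 3′ signal over the 5′ signal, which reflects RNA quality, was 1.74 to 2.61 there and 1.22 to 1.98 in the other 16, so these ranges overlapped. By group the actin ratio ran from 1.27 to 2.17 in Hyp low phosphate, 1.23 to 2.55 in Hyp control, 1.22 to 2.61 in normal low phosphate and 1.26 to 1.98 in normal control. Phex, at 11.5 to 106.3 in Hyp and 19.1 to 88.8 in normal arrays, was below the filter, so its level checks nothing about genotype. None of the proximal tubule markers and none of the thick ascending limb and distal tubule markers on the array was below the filter.

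Dusp6 was higher in Hyp than in normal kidneys on both diets, by 1.71-fold on low phosphate and 1.74-fold on control diet. Ier3 was 1.83-fold higher in Hyp than in normal kidneys on control diet, and the corresponding ratio on low phosphate diet, 1.23, did not pass the test. Spred2, Egr1 and Phlda1 passed the test for genotype on neither diet. Kidney RNA mixes many cell types. A change in the number of cells of a type and a change in RNA per cell therefore cannot be told apart in any of these differences.

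**Figure D1:**
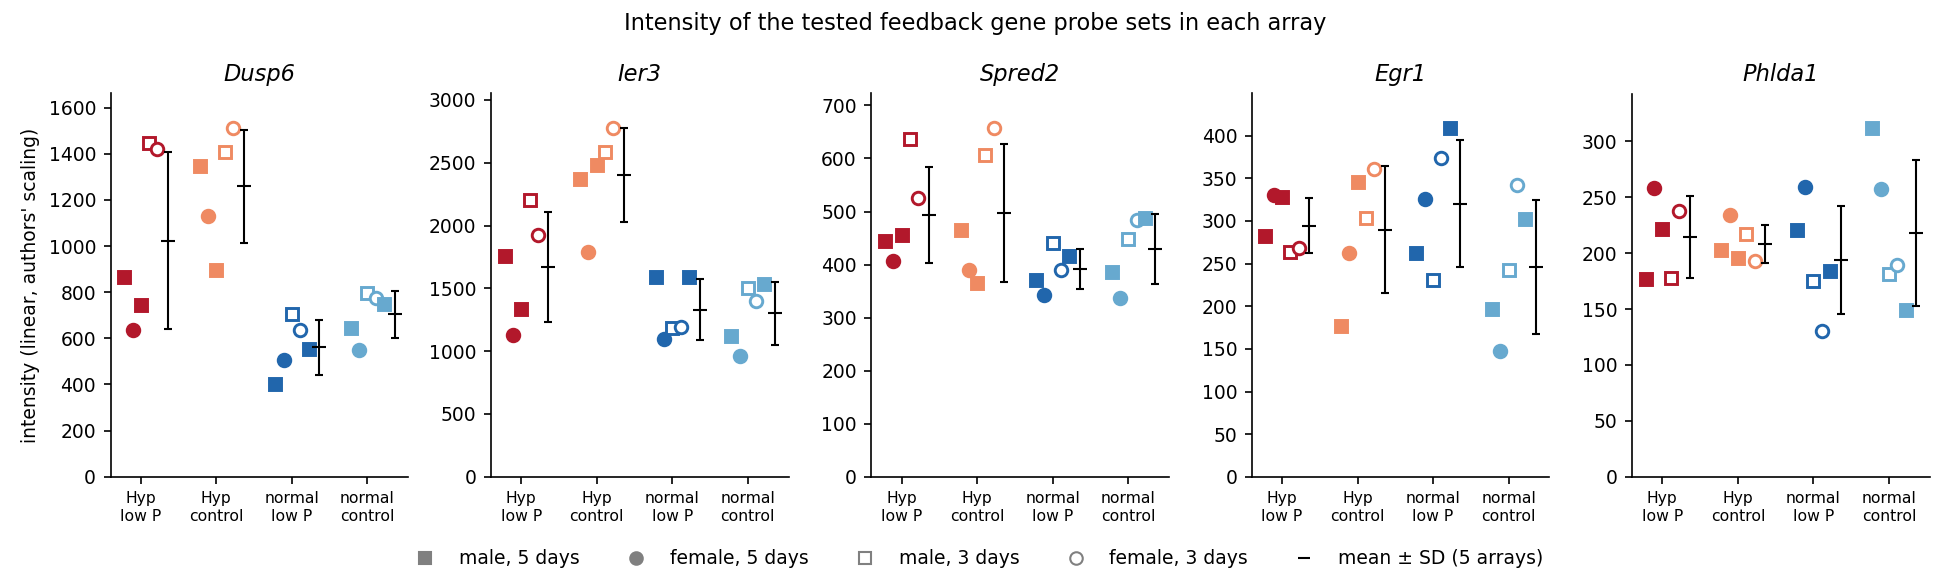
Intensity (linear, authors' scaling) of the tested probe set of each gene in all 20 arrays, by group; squares are males, circles females, filled points 5 days, open points 3 days, and the bars show the mean ± SD of 5 arrays. The 5 Hyp control arrays of Dusp6 (897.9 to 1509.8) and of Ier3 (1786.5 to 2773.7) lie above all normal control arrays, while the groups of Egr1 and Phlda1 overlap.

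On low phosphate diet, Dusp6 had intensities of 865.2, 742.5 (males) and 637.9 (female) in the Hyp arrays at 5 days and 1445.6 (male) and 1421.3 (female) at 3 days. Normal mice on the same diet had 401.0, 551.9 (males) and 507.0 (female) at 5 days and 705.9 (male) and 635.9 (female) at 3 days. Over all 5 arrays the groups overlapped, since the highest normal array at 3 days exceeded the lowest Hyp array at 5 days, but within each duration every Hyp array was above every normal array. On control diet the Hyp arrays held 1344.6, 897.9 (males) and 1129.8 (female) at 5 days and 1407.4 (male) and 1509.8 (female) at 3 days. The normal control arrays held 646.8, 750.2 (males) and 549.1 (female) at 5 days and 797.0 (male) and 774.5 (female) at 3 days. Here the groups did not overlap. The share of all probe sets whose groups separate was not counted, here or for the other separations described.

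Group means of Dusp6 were 1022 ± 383.8 in Hyp low phosphate, 1258 ± 244.6 in Hyp control, 560.3 ± 117.5 in normal low phosphate and 703.5 ± 103.7 in normal control (SD, n = 5 each). The order of the means was thus Hyp control, Hyp low phosphate, normal control and normal low phosphate, and each group overlapped with its neighbours in that order. In limma, Hyp minus normal was 0.77 ± 0.15 (SE) on low phosphate diet (adjusted p = 0.022) and 0.79 ± 0.15 on control diet (adjusted p = 0.025), on the log2(intensity + 38) scale used for all differences below. Averaged over the diets it was 0.78 ± 0.10 (adjusted p = 0.00043). The call on 1 diet rested on few arrays: leaving out any one of arrays 02, 04, 12, 14, 16 or 18 gave an adjusted p of 0.065 to 0.099 (differences 0.69 to 0.78) on low phosphate diet, and leaving out any one of arrays 01, 03, 05, 07, 11, 13, 15 or 17 gave 0.058 to 0.1 (0.72 to 0.84) on control diet. The averaged call held with each of the 20 arrays left out (adjusted p from 4e-04 to 0.0017).

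On low phosphate diet, Ier3 had 1753.7, 1338.6 (males) and 1132.2 (female) in the Hyp arrays at 5 days and 2206.8 (male) and 1927.7 (female) at 3 days. Normal mice on that diet had 1592.5, 1591.1 (males) and 1095.1 (female) at 5 days and 1183.4 (male) and 1192.5 (female) at 3 days. The Hyp arrays overlapped with the normal ones at 5 days and were above them at 3 days. On control diet the Hyp arrays held 2368.2, 2485.5 (males) and 1786.5 (female) at 5 days and 2587.2 (male) and 2773.7 (female) at 3 days. Their normal counterparts held 1123.3, 1532.0 (males) and 958.0 (female) at 5 days and 1499.1 (male) and 1395.8 (female) at 3 days. Every Hyp control array was above every normal control array.

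Ier3 averaged 1672 ± 436.1 in Hyp low phosphate, 2400 ± 374 in Hyp control, 1331 ± 241.2 in normal low phosphate and 1302 ± 250.4 in normal control (SD, n = 5 each). Hyp control stood highest and overlapped with Hyp low phosphate alone, and the other 3 groups overlapped with each other. Hyp minus normal was 0.30 ± 0.14 (SE) on low phosphate diet (limma, adjusted p = 0.51) and 0.87 ± 0.14 on control diet (adjusted p = 0.0095). Averaged over the diets it was 0.58 ± 0.10 (adjusted p = 0.0041). With each array left out in turn, the calls on control diet (adjusted p up to 0.048) and averaged over the diets (up to 0.014) were kept in 20 of 20 fits. The test of the difference between the diets is given below with the diet results.

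Spred2 averaged 493.7 ± 90.39 in Hyp low phosphate, 497 ± 129.5 in Hyp control, 392.1 ± 37.87 in normal low phosphate and 428.9 ± 65.74 in normal control (SD, n = 5 each). The 2 Hyp arrays at 3 days were above the 2 normal arrays at 3 days on each diet, with 635.8 and 525.4 against 440.3 and 389.0 on low phosphate and 606.3 and 656.8 against 449.0 and 484.0 on control diet. Only 2 arrays per group were compared there, and Phlda1 separated in the same way (below). At 5 days the groups of Spred2 overlapped on both diets. Hyp minus normal was 0.29 ± 0.11 (SE) on low phosphate diet (limma, adjusted p = 0.44), 0.17 ± 0.11 on control diet (adjusted p = 0.68) and 0.23 ± 0.08 averaged (adjusted p = 0.2). With the run of title numbers as terms the averaged value was 0.33 (adjusted p = 0.047), and with array weights 0.31 (adjusted p = 0.019).

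Egr1 lies at chr18:34861207-34864956 in GRCm38.p6. Its intensity ran from 263.9 to 330.7 in Hyp low phosphate, 176.3 to 361.4 in Hyp control, 231.1 to 408.6 in normal low phosphate and 147.5 to 342.5 in normal control. Phlda1 ran from 176.5 to 258.5, 192.6 to 234.0, 130.8 to 259.4 and 149.2 to 311.6 in the same 4 groups. Over all 5 arrays the groups of these genes overlapped. At 3 days the 2 Hyp arrays of Phlda1 were above the 2 normal arrays on each diet, with 178.0 and 237.5 against 175.4 and 130.8 on low phosphate and 216.8 and 192.6 against 181.7 and 189.6 on control diet, while at 5 days they overlapped (Hyp minus normal at 3 days 0.24 ± 0.17, adjusted p = 1). Hyp minus normal, averaged over the diets, was 0.07 (95% confidence interval -0.22 to 0.35) for Egr1 and 0.06 (-0.17 to 0.28) for Phlda1, so neither interval reaches the difference measured for Dusp6 or Ier3. The dim second probe sets, fitted without the filter, gave 0.40 ± 0.17 for Dusp6 (adjusted p = 0.34) and 0.39 ± 0.20 for Egr1 (adjusted p = 0.42).

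Of the 5 tested genes, 1 passed an adjusted p of 0.05 for genotype on low phosphate diet and 2 on control diet, where 0.357% and 0.253% of the 8695 probe sets tested passed. Averaged over the diets 2 of 5 passed, against 1.28% of all probe sets. The averaged comparison is built from the same arrays as the other two, so its values are not separate evidence. The 5 genes were chosen with earlier results of these data known, so the counts are not a test of them as a set.

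**Figure D2:**
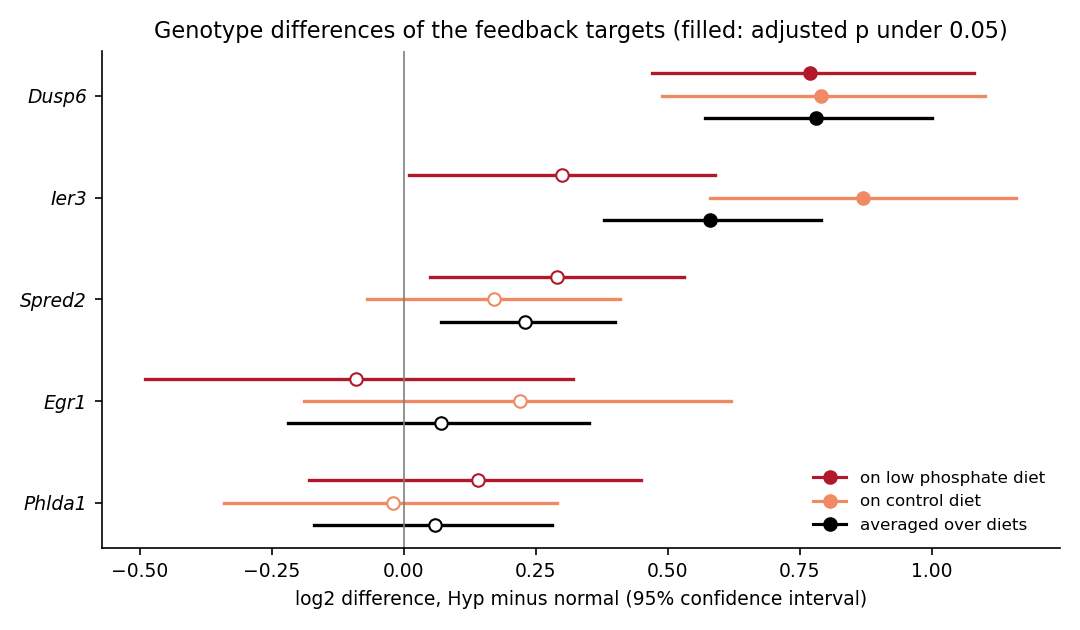
Log2 difference, Hyp minus normal, with its 95% confidence interval for each gene on low phosphate diet, on control diet and averaged over the diets; filled points have an adjusted p under 0.05. Dusp6 is filled in all 3 comparisons, Ier3 on control diet and in the average, and the intervals of Egr1 and Phlda1 include 0.

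The arrays fall into runs of title numbers that share sex and duration, 4 of which hold all 4 groups. Within these 4 runs, the Hyp minus normal difference of the tested Dusp6 probe set between single arrays was positive in 4 of 4 on low phosphate diet (0.31 to 1.11) and in 4 of 4 on control diet (0.79 to 1.01). Ier3 was positive in 4 of 4 on each diet, with 0.05 to 0.88 on low phosphate and 0.77 to 1.05 on control diet. Spred2 was also positive in 4 of 4 on each diet, with smaller values of 0.22 to 0.49 and 0.19 to 0.41. These differences come from the same arrays as the fits above, so they are not separate evidence. The share of all probe sets with the same sign in every run was not counted, here or for the diet differences below. The tested Egr1 probe set had both signs on each diet (-0.42 to 0.17 on low phosphate, -0.13 to 0.70 on control), as did Phlda1 (-0.27 to 0.71 and -0.54 to 0.21). The lowest Dusp6 and Ier3 differences on low phosphate diet came from arrays 05 to 08. For Ier3 the other complete run at 5 days, arrays 01 to 04, was also low (0.14), against 0.88 and 0.68 in the runs at 3 days. The dim second probe set of Dusp6 had both signs on each diet (-0.31 to 0.54 on low phosphate, with 2 of 4 positive, and -0.10 to 1.26 on control, with 3 of 4). That of Egr1 was positive in 3 of 4 on low phosphate (-0.50 to 0.84) and in 4 of 4 on control diet (0.25 to 1.44).

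**Figure D3:**
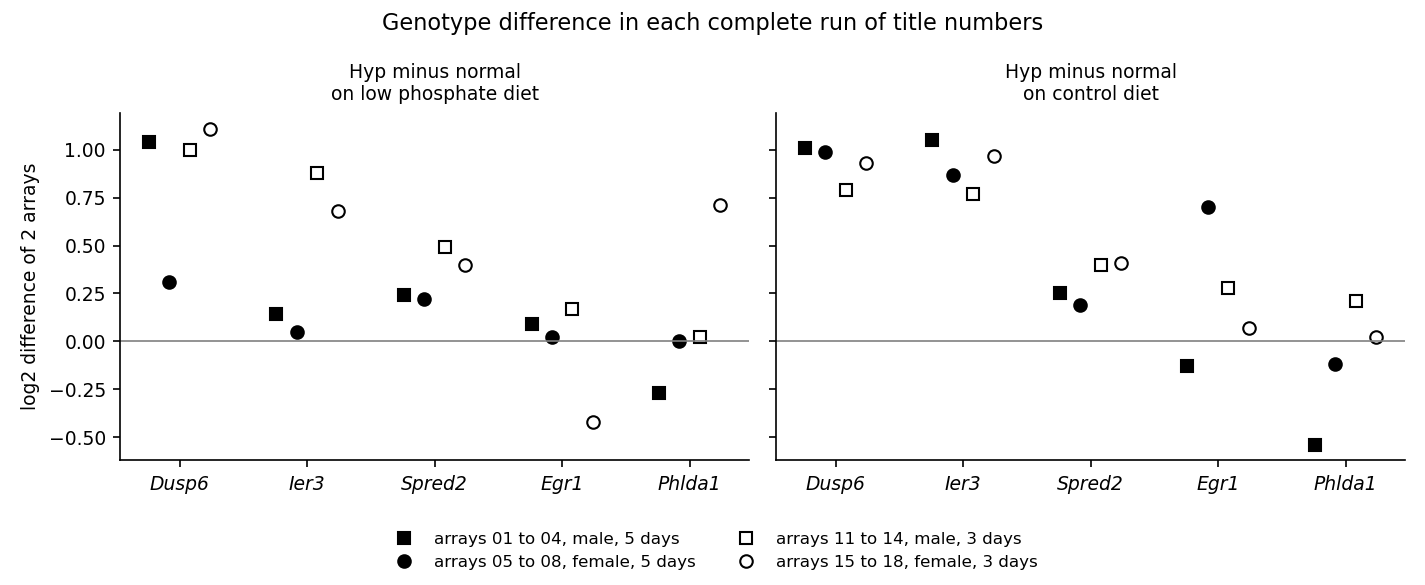
Hyp minus normal log2 difference between the 2 arrays of one diet in each of the 4 complete runs of title numbers, on low phosphate diet (left) and control diet (right). Points of Dusp6, Ier3 and Spred2 are above 0 in every run, and those of Egr1 and Phlda1 lie on both sides of 0.

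The low phosphate diet itself gave no call among the 5 genes in either genotype. In Hyp mice Ier3 was -0.54 ± 0.14 (SE) on low phosphate against control diet (limma, adjusted p = 0.4, unadjusted p = 0.0012) and Dusp6 was -0.34 ± 0.15 (adjusted p = 1). Single arrays of the 2 diets in a run could be compared 5 times per genotype: the Ier3 difference was negative in 5 of 5 in Hyp mice (-0.87 to -0.23), and the Dusp6 difference in 4 of 5 (-0.79 to 0.04). At each duration the Hyp low phosphate arrays of Ier3 were all below the Hyp control arrays. Of the 8695 probe sets, 0.15% passed for diet in Hyp mice, so few genes of any kind were called in this comparison.

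In normal mice the diet difference of Dusp6 was -0.32 ± 0.15 (adjusted p = 0.56), negative in 5 of 5 runs (-0.64 to -0.11), and that of Ier3 was 0.04 ± 0.14 (adjusted p = 0.98), positive in 3 of 5 (-0.33 to 0.49). Egr1 had the largest positive diet difference of the 5 genes there, 0.35 ± 0.19 (adjusted p = 0.64). None of the 5 passed, against 0.184% of all probe sets. The test of whether the diet difference of Ier3 differed between Hyp and normal mice gave -0.57 ± 0.19 (limma interaction, adjusted p = 1, unadjusted p = 0.0092), and none of the 5 genes passed it, against 0.046% of all probe sets. Averaged over the genotypes, Dusp6 was -0.33 ± 0.10 (adjusted p = 0.24) and Ier3 -0.25 ± 0.10 (adjusted p = 0.39), with 0 of 5 called and 0.472% of all probe sets called. The diet comparisons share their arrays with the genotype comparisons, so their values are not independent of those.

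The tested probe sets of Dusp6, Ier3 and Spred2 were all lower at 5 than at 3 days on diet, over the 4 groups together. The 5 minus 3 day difference was -0.52 ± 0.11 (SE) for Dusp6 (limma, adjusted p = 0.0014), -0.36 ± 0.08 for Spred2 (adjusted p = 0.0035) and -0.30 ± 0.10 for Ier3 (adjusted p = 0.027). The dim second probe set of Dusp6, fitted without the filter, had the opposite sign, 0.35 ± 0.18 (adjusted p = 0.13), and the dim one of Egr1 had 0.37 ± 0.21 (adjusted p = 0.17). The tested probe sets of Egr1, at -0.12 ± 0.14 (adjusted p = 0.52), and Phlda1, at 0.24 ± 0.11 (adjusted p = 0.087), did not pass. The count of 3 of 5 has to be read against 40.9% of all probe sets that passed in this comparison. No run of title numbers holds both durations, so days on diet cannot be told apart from the run. Ier3 lost its call when any one of arrays 08, 11, 14 or 17 was left out, which left 2 called genes, and lost it to Phlda1 without array 18, which left 3; without array 19 there were 4.

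Mean Dusp6 intensities at 5 and 3 days were 748.5 and 1433 in Hyp low phosphate, 1124 and 1459 in Hyp control, 486.6 and 670.9 in normal low phosphate and 648.7 and 785.8 in normal control (n = 3 and 2 arrays). The 2 Hyp groups were separate at 5 days, where all 3 low phosphate arrays (637.9 to 865.2) were below the 3 control arrays (897.9 to 1344.6), and overlapped at 3 days. Ier3 means were 1408 and 2067 in Hyp low phosphate, 2213 and 2680 in Hyp control, 1426 and 1188 in normal low phosphate and 1204 and 1447 in normal control. Only normal mice on low phosphate had a higher Ier3 mean at 5 than at 3 days. Spred2 means were 435.7 and 580.6, 407.3 and 631.5, 377 and 414.6, and 403.8 and 466.5 in the same order of groups.

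**Figure D4:**
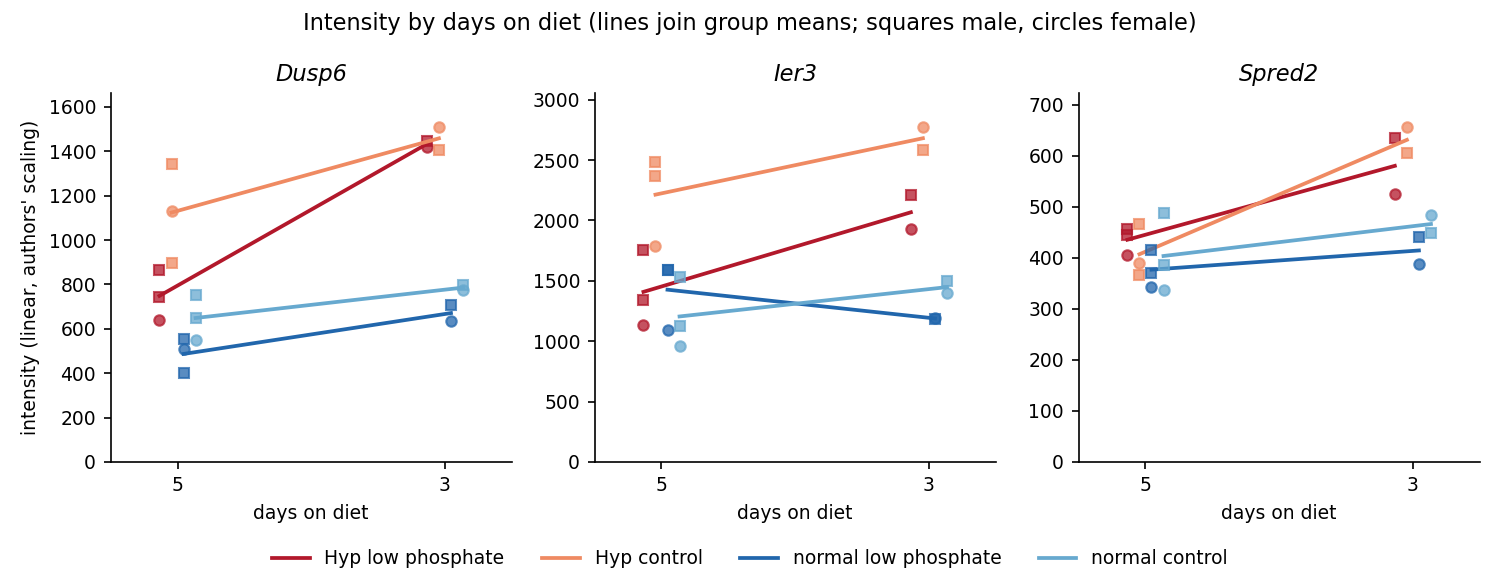
Intensity (linear, authors' scaling) of Dusp6, Ier3 and Spred2 against days on diet; points are arrays, squares male and circles female, and lines join the group means of 3 arrays at 5 days and 2 at 3 days. The axis runs with 5 days on the left. Dusp6 in Hyp low phosphate has means of 748.5 at 5 days and 1433 at 3 days, the steepest line of that gene.

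Within single groups, contrasts chosen after the values were seen gave a lower level at 5 days of Dusp6 (-0.93 ± 0.19, SE, limma adjusted p = 0.018) and Ier3 (-0.64 ± 0.16, adjusted p = 0.029) in Hyp low phosphate, where 10.7% of all probe sets passed. In Hyp control Spred2 was -0.62 ± 0.16 (adjusted p = 0.04), with 4.38% of all probe sets called. Leaving out any one of arrays 08, 10, 14 or 18 ended both calls in Hyp low phosphate (adjusted p from 0.05 to 0.17 for Dusp6 and 0.075 to 0.23 for Ier3), and 11 of 20 such fits ended that of Spred2 (0.05 to 0.32), those without array 04, 06, 09 or any of 11 to 18. In the normal groups 0 of 8695 probe sets passed in limma, with 1447 at an unadjusted p under 0.05 on low phosphate and 1053 on control diet; Dusp6 had -0.46 ± 0.19 (adjusted p = 0.26) and -0.29 ± 0.19 (adjusted p = 0.55) there. Whether the day difference itself differed between single groups is not shown by these calls.

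Whether the genotype difference changed with days was tested directly. The interaction was -0.29 ± 0.19 (SE) for Dusp6, -0.40 ± 0.16 for Ier3 and -0.32 ± 0.15 for Spred2 (limma, adjusted p = 0.92 for each), and 0 of 8695 probe sets passed, with 424 at an unadjusted p under 0.05. At 5 days Hyp minus normal was 0.67 ± 0.12 for Dusp6 (adjusted p = 0.032) and 0.42 ± 0.10 for Ier3 (adjusted p = 0.071), and Spred2 had 0.11 ± 0.10 (adjusted p = 0.59), with 1 of 5 genes called against 0.276% of all probe sets. The Ier3 value averages -0.02 ± 0.14 on low phosphate (adjusted p = 0.96) and 0.87 ± 0.14 on control diet (adjusted p = 0.051), contrasts chosen after the values were seen. At 3 days it was 0.96 ± 0.15 for Dusp6 (adjusted p = 0.023) and 0.82 ± 0.12 for Ier3 (adjusted p = 0.019), and Spred2 had 0.43 ± 0.12 (adjusted p = 0.47); 2 of 5 genes were called, against 0.104% of all probe sets. At 5 days the Dusp6 call was kept in 5 of 20 fits with 1 array left out, those without array 01, 03, 06, 09 or 19, and its adjusted p was 0.051 to 0.097 in the other 15. The calls at 3 days were lost without any one of the 8 arrays 11 to 18 (adjusted p from 0.13 to 0.21 for Dusp6 and 0.08 to 0.21 for Ier3), which leaves 1 array in a group whose spread is then taken from the other groups. For diet by days, 0 probe sets passed (276 at an unadjusted p under 0.05), and the largest value of the 5 genes was 0.55 ± 0.27 for Egr1 (adjusted p = 1).

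Sex gave no call among the 5 genes, against 16.6% of all probe sets. Ier3 had the largest male minus female difference, 0.25 ± 0.10 (SE, limma, adjusted p = 0.099), and without array 12 it passed, which made 1 call of 5. The Hyp minus normal difference of Dusp6 was 0.75 ± 0.14 in males (adjusted p = 0.037; 1 of 5 genes and 0.46% of all probe sets called) and 0.84 ± 0.17 in females (adjusted p = 0.17; 0 of 5 and 0.0575%). The genotype by sex term was -0.09 ± 0.23 for Dusp6 (adjusted p = 0.95), and 0 of 8695 probe sets passed that test, with 509 at an unadjusted p under 0.05.

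The 5 genes did not all vary together from array to array. After the group means were subtracted, Dusp6 and Spred2 had a Pearson r of 0.79 and a Spearman rho of 0.81 over the 20 arrays (permutation p = 5e-05 and adjusted p = 0.0005 over 10 pairs for both). Without the 2 arrays farthest from the median of Dusp6, r was 0.74. Ier3 and Spred2 had r = 0.69 and rho = 0.70 (permutation test, adjusted p = 0.0042 and 0.004), and r = 0.60 without 2 arrays. Within the 12 arrays at 5 days r was 0.76 for Dusp6 with Spred2 and 0.67 for Ier3 with Spred2. Within the 8 arrays at 3 days it was 0.60 for each. For these values the mean of each group at that duration was subtracted. At 3 days a group held 1 male and 1 female array, so r there reflects only the male minus female differences of the 4 groups. With the group means and the strata of sex and days both removed over the 20 arrays, r was 0.47 for each pair of genes. No p was computed for that value. The permutations here and below ignored these strata, so their p-values also reflect any shift that 2 genes share between strata.

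Dusp6 and Ier3 had r = 0.56 and rho = 0.48 (permutation test, adjusted p = 0.036 and 0.061), and r = 0.35 (p = 0.15, permutation) without 2 arrays on whose presence the call depended. The relation was also weaker within the 12 arrays at 5 days (r = 0.36), within the 8 at 3 days (0.39) and with the strata removed (0.36). For this and the following pairs, r within 3 days again reflects only the male minus female differences of the groups. Spred2 and Phlda1 ran opposite to each other by rank (rho = -0.55, adjusted p = 0.044; r = -0.46, adjusted p = 0.082; permutation test), with r = -0.70 within 5 days, -0.26 within 3 days and -0.07 once the strata were removed. Ier3 and Phlda1 had r = -0.51 (adjusted p = 0.056, permutation test), with -0.82 within 5 days, -0.74 within 3 days and -0.16 once the strata were removed. Neither that pair nor the remaining ones passed by either measure.

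As a description, the genes whose level followed each of the 5 most closely over the 20 arrays, with the means of the sex and day strata subtracted, were looked up among 6433 genes. For Dusp6 they were Bex4 (r = 0.90), Kcnj1, the apical potassium channel of the thick ascending limb (r = 0.90), and Ttr, the thyroid hormone carrier transthyretin (r = 0.89). Those of Ier3 were Abcb1b, a drug efflux pump, Bex4, and Slc12a3, the thiazide-sensitive sodium chloride cotransporter of the distal tubule, each with r = 0.86. Spred2 was followed by Gstt1 (0.80), Slc4a1 (0.77) and Rnase4 (0.76), Egr1 by Sec23a (0.82), Evi5 (0.79) and Upp2 (0.78), and Phlda1 by Crlf3 (0.80), Map3k12 (0.75) and Pmfbp1 (0.73). All values share the same 20 arrays and the same group differences. The 5 genes named beside Dusp6 and Ier3 were themselves called higher in Hyp than in normal kidneys averaged over the diets. Their values ran from 0.33 ± 0.07 for Kcnj1 (adjusted p = 0.024) to 2.68 ± 0.12 for Ttr (adjusted p = 5e-10, limma). Beside Spred2, Rnase4 (1.14 ± 0.16, adjusted p = 0.00079) and Slc4a1 (0.35 ± 0.08, adjusted p = 0.043, limma) were called too, and Gstt1 was not. The search left the genotype difference in the values, so it favoured genes that share it. These calls are therefore not separate evidence.

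Around the 5 genes, other parts of the pathway were examined as lists, by Hyp minus normal averaged over the diets, where the median of all probe sets was 0.02, 55.2% of them had a positive difference and 1.28% were called. Of 9 other ERK feedback inhibitors tested 6 had a positive difference (median 0.08) and 1 passed. This was Errfi1, an inhibitor of EGF receptor family kinases, which averaged 6387 ± 1030 in Hyp low phosphate, 7351 ± 964 in Hyp control, 5211 ± 1690 in normal low phosphate and 5054 ± 607 in normal control (SD, n = 5 each), with a difference of 0.43 ± 0.09 (SE, limma adjusted p = 0.022). Dusp2, a nuclear phosphatase of ERK, had -0.39 and did not pass.

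The 22 other immediate early and ERK-induced genes tested had 11 positive differences and a median of 0.03. The gene that passed was Gadd45b, a stress-induced gene, which fell (-0.61 ± 0.13, adjusted p = 0.023), with 78.1 ± 36.3 in Hyp low phosphate and 63.02 ± 27.9 in Hyp control, against 129.9 ± 10.6 in normal low phosphate and 118.6 ± 34.1 in normal control (SD, n = 5 each). Fosl2, a partner of Jun in AP-1, had the largest positive value, 0.47, without passing. Fos, Fosl1, Myc, Maff and Plaur were below the filter. The wider list of ERK-induced genes had a median near that of all probe sets.

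Of 21 FGF and EGF family ligands on the array only 5 passed the filter; 4 of these had positive differences (median 0.11) and 0 passed the test, the largest being 0.29 for Fgf9. Of 7 receptors and co-receptors tested 3 were positive (median -0.05) and 2 fell. Kl, the FGF23 co-receptor Klotho, averaged 4845 ± 631 in Hyp low phosphate and 4605 ± 398 in Hyp control, against 7032 ± 474 in normal low phosphate and 6114 ± 654 in normal control (SD, n = 5 each), a difference of -0.47 ± 0.08 (SE, limma adjusted p = 0.0035). Kl was also called on low phosphate diet alone, at -0.54 ± 0.11 (adjusted p = 0.037). Fgfr4, an FGF receptor, averaged 172.8 ± 96.3 in Hyp low phosphate and 194.5 ± 106 in Hyp control, against 282.5 ± 111 in normal low phosphate and 317.5 ± 116 in normal control (SD, n = 5 each), a difference of -0.67 ± 0.15 (adjusted p = 0.037). The 10 tested genes of the Ras to ERK cascade had 4 positive differences, a median of -0.02 and 0 calls. No gene of the 5 lists passed for diet in either genotype.

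**Figure D5:**
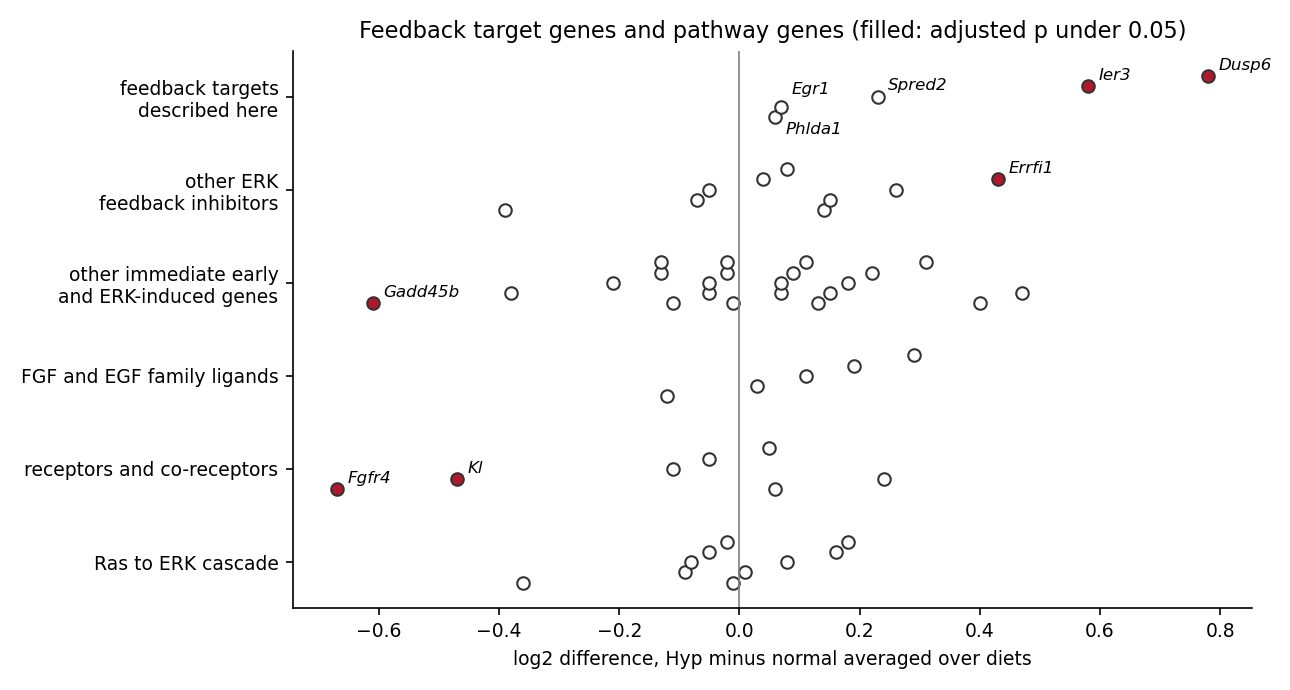
Log2 difference, Hyp minus normal averaged over the diets, of each tested gene of the 5 feedback targets and of 5 pathway lists; each point is 1 gene and filled points have an adjusted p under 0.05. Dusp6, Ier3 and Errfi1 are filled to the right of 0, and Fgfr4, Gadd45b and Kl to the left.

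Markers of kidney segments and other cells differed between the genotypes too, and their part in the results above was not tested. Averaged over the diets, 2 of 7 thick ascending limb and distal tubule markers were higher in Hyp (Kcnj1 0.33 ± 0.07 and Slc12a3 0.33 ± 0.07, SE) and 1 was lower (Calb1 -0.71 ± 0.07), and 1 of 8 proximal tubule markers was called lower (Slc2a2 -0.34 ± 0.06). None of the 8 proximal markers had a positive averaged difference (median -0.12, against 0.02 for all probe sets); on low phosphate diet 0 of 8 were positive (median -0.20) and on control diet 2 of 8 (median -0.07). The summed intensity of the 7 distal markers ran from 43580 to 48922 in Hyp low phosphate, 43033 to 53329 in Hyp control, 46014 to 59997 in normal low phosphate and 41379 to 50412 in normal control. The sum of the 8 proximal markers ran from 71960 to 88119, 75446 to 82137, 88044 to 94078 and 78779 to 85736 in the same groups. Of 10 tested macrophage and lymphocyte markers 8 had positive differences (median 0.21) and 0 were called; the sums over all 16 on the array ran from 4020 to 4674 in Hyp low phosphate, 4392 to 4794 in Hyp control, 3670 to 4609 in normal low phosphate and 3560 to 4292 in normal control. All 3 tested red blood cell markers had positive averaged differences (median 0.35; 0.37 on low phosphate and 0.34 on control diet), and 1, Slc4a1, was called higher in Hyp (0.35 ± 0.08); no collecting duct, podocyte, endothelium, fibroblast, adipocyte or adrenal marker was called. No marker was listed at 0.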

How the data were processed

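Kidney RNA of 20 pools of 3 mice was measured on 1-colour oligonucleotide arrays. The deposited table holds 1 linear intensity per probe set and array, which the authors had scaled, as the values show, to a common mean after trimming 2% at each end (500.254 to 500.309); array medians ran from 185.75 to 228.15. The software was not given in the sources used here. No pair of arrays was identical, and 0 value columns were unused. P-values measure the spread between pools, not single mice.

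Of 12488 probe sets 66 controls were set aside, and those with a mean under the 30th percentile (79.4) left out, which left 8695. Values were taken as log2(intensity + 38), the offset being their 20th percentile, so differences understate the change of dim genes. limma 3.58.1 in R 4.3.3 was fitted on the 20 arrays with terms for the 4 groups and for each of the 4 combinations of sex and days (strata), or with group by days or group by sex cells plus strata, and p-values (two-sided) were adjusted by Benjamini-Hochberg over the 8695 in each comparison and called under 0.05. The fits were tested on simulated data. Correlations used 100000 permutations in scipy 1.17.1.

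Pathway genes were named when past the threshold for genotype or diet, or among the 2 of a list with the largest averaged genotype difference; a gene is given by its brightest probe set. The 5 genes, the lists and the alternatives were chosen with earlier results of these data known. Alternatives were offsets of 1 and 100, quantile normalization, no filter or one at the median, trended robust moderation, other terms and subsets of arrays, array weights, and each array left out in turn.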

Additional observations from a re-analysis of the deposited data

Results flagged for a closer look

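The dim second probe set of Dusp6, which was below the filter on low values, had 1 array far from the other 4 of its group. Array 06, a female pool at 5 days on low phosphate diet in normal mice, had an intensity of 75.8, while the group's lowest was 5.1 and its median 12.9. Among the 28 groups of 5 arrays examined (7 probe sets in 4 groups) this was the 1 that stood apart by Dixon's criterion, which flags about 1 in 20 groups by chance. Array 06 is among the 4 arrays whose correlations with all others lay below those of the remaining 16. The tested probe set of Dusp6 had 507.0 on that array, inside its group's range of 401.0 to 705.9.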

How the results depend on the processing

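Dusp6 kept its averaged genotype call under all 11 alternatives (adjusted p from 2.1e-05 to 0.024); Ier3 kept it under 10, the exception being no terms for sex and days (0.58, adjusted p = 0.066). On control diet, where 2 of the 5 genes were called, 0 were called with no terms for sex and days, without arrays 05 to 08, in males, in females, at 5 days or at 3 days alone, or with only the groups compared, fits that called 0 to 5 of all 8695 probe sets; leaving out 1 array gave 1 to 2. Without arrays 05 to 08 the values there were 0.75 for Dusp6 (adjusted p = 0.12) and 0.87 for Ier3 (adjusted p = 0.11), against 0.79 and 0.87 with all arrays. The differences thus changed little while the adjusted p rose. The Dusp6 call on low phosphate diet was kept without these arrays. On low phosphate diet, where 1 was called, 0 were with no terms, in either sex or duration alone, or with only the groups compared (0 to 11 of all probe sets called), and 0 to 1 with 1 array left out. Averaged, 2 were called; 1 was with no terms or at 3 days alone, 0 in males, in females or at 5 days alone (0 to 29 of all probe sets called in these fits), and 2 in every fit with 1 array left out. For sex 0 were called, and 0 to 1 with 1 array left out; for days 3 were called, and 2 to 4 with 1 left out. Subsets hold fewer arrays, and the cause of these changes was not tested. The reversed values were all small and uncalled: without arrays 05 to 08, Phlda1 on control diet was 0.0037, Egr1 for diet in Hyp mice -0.01, Spred2 for diet in Hyp mice -0.0018, Ier3 for diet in normal mice -0.0023, the Dusp6 interaction 0.14 and averaged Egr1 -0.01; with array weights, for diet in Hyp mice, Egr1 was -0.01, Spred2 -0.06 and Phlda1 -0.04, and the Dusp6 interaction 0.08; with quantile normalization Spred2 for diet in Hyp mice was -0.02; without arrays 09, 10, 19 and 20 it was -0.06 and Phlda1 -0.01. With 1 array left out, values that changed sign ran from -0.13 to 0.12 (Phlda1, control diet), -0.18 to 0.03 (Egr1, low phosphate diet), -0.01 to 0.14 (Egr1, averaged), -0.10 to 0.07 (Dusp6, interaction), -0.03 to 0.14 (Ier3, diet in normal mice), -0.24 to 0.01 (Phlda1, diet in normal mice), -0.11 to 0.02 (Phlda1, diet averaged) and, for diet in Hyp mice, -0.11 to 0.16 (Egr1), -0.07 to 0.09 (Spred2) and -0.06 to 0.08 (Phlda1). No paired analysis was possible because the labels share no replicate number between groups; blocking by run of title numbers moved 1 count of called genes, that of the averaged genotype difference (3 against 2).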
